A study of Mus musculus with 9 samples.

Results

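The numbered Gpr genes are those whose mouse symbol is Gpr followed by a number and at most one letter, a name given to predicted G protein-coupled receptors before a ligand was known. The count table held 76 of them among 55471 genes. Of these, 38 had at least 10 counts in at least 3 of the 9 libraries and were all among the 16260 genes tested. RNA came from bone marrow-derived dendritic cells (DCs) of wild-type C57BL/6 mice, female and 8 to 20 weeks old, grown with GM-CSF. DCs were left unstimulated (3 libraries), activated with lipopolysaccharide (LPS, a bacterial ligand of TLR4) at 100 ng/mL (3 libraries) or treated with interferon-beta (IFN-β) at 1000 U/mL (3 libraries). All were harvested at 6 h, and the libraries of each group are lettered A, B and C. The labels do not say whether the letters stand for separate mice or cultures, so p-values measure only the spread between these libraries. GM-CSF cultures are known to hold macrophage-like cells beside DCs, and in bulk RNA fewer cells of a type and less RNA per cell cannot be told apart.

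G protein-coupled receptors cross the membrane with a bundle of helices and, when bound by a ligand, release the subunits of a heterotrimeric G protein inside the cell. Many of the receptors first numbered as orphans were later matched to protons, fatty acids, oxysterols, lysophospholipids or peptides, and several of these steer migration and cytokine release in myeloid cells. Some genes that carry the name encode Golgi or lysosomal membrane proteins that are not classical surface receptors.

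The libraries held 33425803 to 43735199 counts, so that 3 counts corresponded to 0.0674 to 0.106 CPM (counts scaled by library total and TMM factor). Summed markers of dendritic and macrophage cells lay at 6073 to 7231 CPM in unstimulated, 7531 to 8667 in LPS-activated and 7032 to 7439 in IFN-β-treated libraries. Neutrophil markers summed to between 9.61 and 25.6 CPM over all libraries, eosinophil markers to between 11.9 and 32.7, and fibroblast markers to between 1.21 and 5.20, each overlapping between groups. The T cell, B cell, NK cell, mast cell and erythroid lists each stayed at or under 0.354 CPM, with Cma1 and Hbb-bs at 0 counts throughout. The 3 endothelial markers summed to 12.7 to 14.7 CPM in unstimulated libraries, 126 to 132.04 with LPS and 130 to 158 with IFN-β, most of it from Kdr. Their part in the results was not tested. A list of 7 stimulation genes (Il12b, Nos2, Il6, Mx1, Isg15, Ifit1, Rsad2) summed to 157 to 299 CPM in unstimulated, 24965 to 30575 in LPS and 5405 to 6771 in IFN-β libraries, so every library fell on the side its label gives.

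Reported Gpr genes moved in both directions under both stimuli. Under LPS, 29 of 38 members passed an adjusted p of 0.05 in edgeR's quasi-likelihood test, beside 68.2% of all genes tested. Of these, 16 were higher, beside 32.8% of all genes, and 13 were lower, beside 35.4%. Under IFN-β, 22 of 38 passed, beside 46.9% of all genes, with 14 higher, beside 23.6%, and 8 lower, beside 23.3%. The response to IFN-β differed from the response to LPS for 25 of 38, beside 49.1% of all genes. It lay above the LPS response for 14, beside 25.8% of all genes, and below it for 11, beside 23.3%. Gpr31a and Gpr4 reached the count floor in LPS libraries only and so had to be higher there. Gpr31b and Gpr33 reached it in stimulated libraries only, which favoured their rises. Gpr162 reached it in no LPS library, which favoured its LPS fall. The counts of members called describe the members rather than set them apart. The split depends on the scaling: with library size alone, 12 were higher and 20 lower under LPS, and 7 higher and 13 lower under IFN-β. That setting moved the median over all genes by -0.58 and -0.31 on the log2 scale, respectively. Shares of all genes that pass were not taken for it.

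The median size of change, whatever its direction, was 1.09 on the log2 scale for the 38 members under LPS and 0.65 over all genes. Under IFN-β it was 0.52 for the members and 0.35 over all genes. The signed medians were close to 0, at -0.01 for the members and -0.04 over all genes under LPS, and at 0.17 and -0.02 under IFN-β. All 3 LPS libraries lay outside the range of the unstimulated libraries for 30 of 38 members, beside 72.4% of all genes tested, and all 3 IFN-β libraries for 24, beside 58.1%. An exact two-sided permutation test of 3 against 3 libraries gives p = 0.1 in those cases, the smallest it can give, so the tests below are those of the model over all genes. Gpr107, Gpr137, Gpr21, Gpr19, Gpr179 and Gpr82 passed under neither stimulus. With library size alone Gpr107 passed as lower under LPS, and Gpr137, Gpr19 and Gpr179 as lower under both stimuli.

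**Figure D1:**
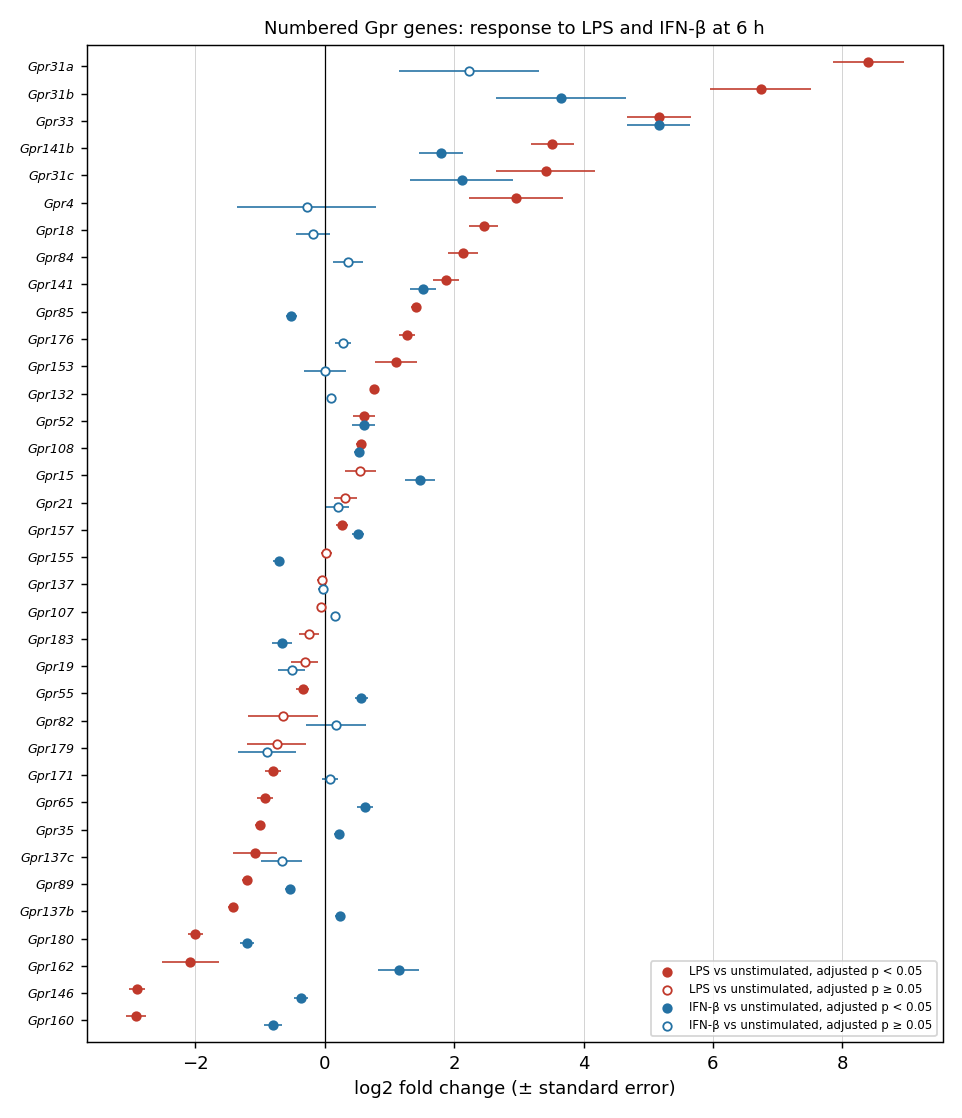
Each of 36 reported genes is a row, with its log2 fold change at 6 h against unstimulated DCs on the horizontal axis, LPS in red and IFN-β in blue. Bars are standard errors, and filled points passed an adjusted p of 0.05. The LPS points run from -2.92 (Gpr160) to 8.40 (Gpr31a) and the IFN-β points from -1.21 (Gpr180) to 5.16 (Gpr33), and of the filled points those of Gpr108 and Gpr157 under LPS and Gpr137b and Gpr35 under IFN-β change sign with library size alone.

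Gpr4, Gpr65 and Gpr132 are related receptors, of which Gpr4 and Gpr65 are activated by extracellular acid. They did not move as one under LPS, with Gpr132 higher and Gpr65 lower. Gpr4 reached the count floor in LPS libraries only and so had to be higher there. The abundant Gpr132 (for which lysophospholipids and oxidized fatty acids have been proposed as ligands) stood at 59.2, 57.8 and 59.2 CPM in libraries A, B and C without stimulation, 107, 98.8 and 92.2 with LPS and 63.8, 61.4 and 63.96 with IFN-β. Its LPS libraries were all above the rest, a log2 fold change of 0.76 ± 0.06 (± SE, here and below, adjusted p = 1.7e-06), whereas IFN-β gave 0.10 ± 0.06 (adjusted p = 0.216), or -0.20 with library size alone (adjusted p = 0.0120).

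Gpr65, also known as TDAG8 and coupled to cAMP production in leukocytes, moved in opposite directions. The unstimulated libraries held 21.01, 20.5 and 22.9 CPM, the LPS libraries 11.8, 8.80 and 13.4 and the IFN-β libraries 34.9, 31.9 and 32.4. The 3 groups did not overlap, at -0.92 ± 0.13 under LPS (adjusted p = 8e-05) and 0.62 ± 0.12 under IFN-β (adjusted p = 0.00203). The 2 responses differed by 1.55 ± 0.13 (adjusted p = 4.3e-06), and with library size alone the IFN-β rise was 0.31 (adjusted p = 0.0524). An antisense gene, Gm47566, covers 10.9% of the 100-base windows of Gpr65, but averaged no more than 0.0200 CPM in any group, and how strand was counted is not given in the sources used here.

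Gpr4, a receptor best known from endothelial cells, was near the limit of detection. Its raw counts were 6, 2 and 0 in unstimulated libraries, 19, 15 and 14 with LPS and 5, 1 and 0 with IFN-β. The 48 LPS counts against 8 unstimulated counts make a depth-scaled ratio of 8.09 (exact 95% interval 3.79 to 19.8, counting error only). The fitted change was 2.95 ± 0.72, a rise that the count floor required. Under IFN-β Gpr4 gave -0.28 ± 1.07 (adjusted p = 0.853). Among the endothelial markers above, Kdr averaged 9.76 ± 0.831 CPM in unstimulated, 122 ± 3.47 in LPS and 136 ± 14.7 in IFN-β libraries, and its part in the Gpr4 result was not tested.

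**Figure D2:**
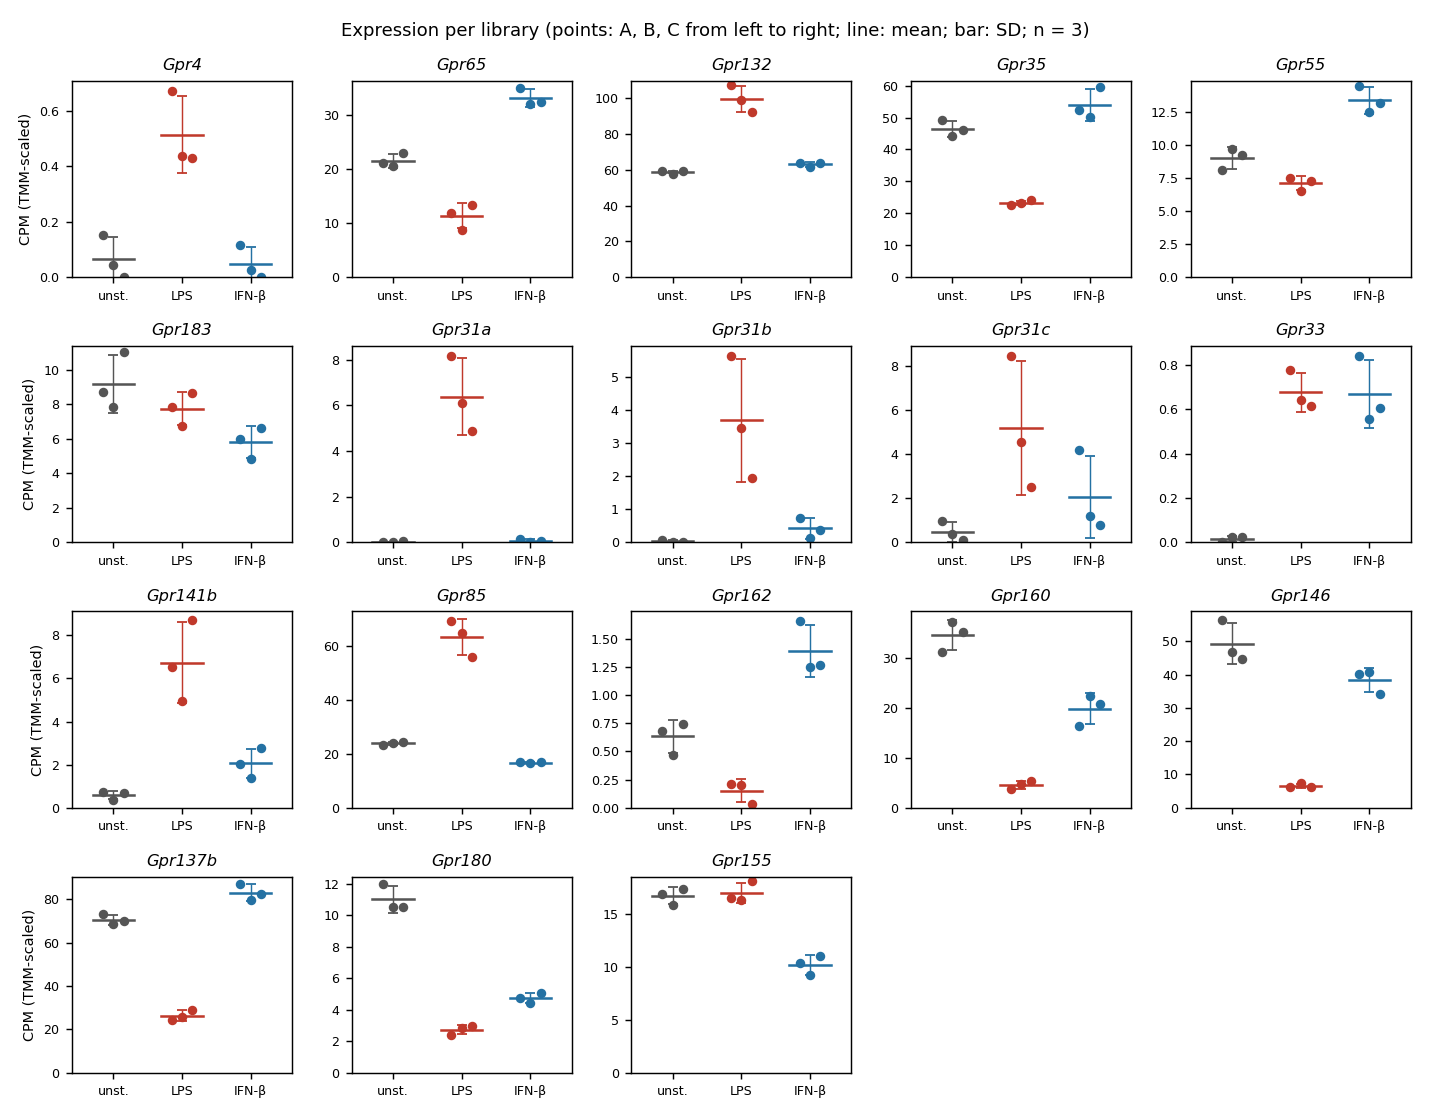
CPM scaled by TMM factors in each library for 18 Gpr genes, with unstimulated in grey, LPS in red and IFN-β in blue, letters A to C from left to right, a line at the mean and a bar for the SD (n = 3). Each panel has its own vertical axis from 0. Gpr65 separates into 3 groups with LPS lowest at 8.80 to 13.4 CPM and IFN-β highest at 31.9 to 34.9, and Gpr31a is near 0 outside the LPS libraries.

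Receptors with known or proposed lipid, sterol or metabolite ligands had 7 reported genes. Gpr31b and Gpr31c are counted among them, and Gpr31a among the remaining orphans. Of the 7, 4 were higher and 2 lower under LPS, beside 32.8% and 35.4% of all genes. Under IFN-β 4 were higher and 1 lower, beside 23.6% and 23.3%. Gpr84, which binds medium-chain fatty acids and is known to be induced in activated myeloid cells, rose from 20.4 ± 6.25 CPM (mean ± SD, n = 3, as in all means below) to 89.98 ± 6.25 under LPS, a log2 fold change of 2.14 ± 0.23 (adjusted p = 1.2e-05). Under IFN-β its mean was 26.3 ± 8.19 CPM, with libraries overlapping the unstimulated ones, and the change of 0.36 ± 0.23 had an adjusted p of 0.223. With the letter as a replicate block this p was 0.0239, and without unstimulated library C the change was 0.64 (adjusted p = 0.0286). An antisense gene, Gm49482, covers 35.9% of the windows of Gpr84 but stayed at or under 0.437 CPM on average.

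Gpr183 (EBI2) guides B cells, T cells and DCs along gradients of 7alpha,25-dihydroxycholesterol. Unstimulated libraries held 8.69, 7.84 and 11.1 CPM, LPS libraries 7.85, 6.76 and 8.66 and IFN-β libraries 5.97, 4.83 and 6.66. Only the IFN-β libraries lay wholly below the unstimulated ones, with a log2 fold change of -0.66 ± 0.16 (adjusted p = 0.00612). LPS gave -0.25 ± 0.16 (adjusted p = 0.189), or -0.83 with library size alone (adjusted p = 6.5e-04), and the responses differed by -0.41 ± 0.16 (adjusted p = 0.0556). With the replicate block the LPS change passed (adjusted p = 0.0238), as did the difference (adjusted p = 0.00158). Of the enzymes that act on its ligand, Ch25h, which starts the synthesis, stood at 1.997 ± 0.842 CPM in unstimulated DCs, 245 ± 41.9 under LPS and 16.7 ± 5.68 under IFN-β. Those are log2 fold changes of 6.92 ± 0.34 (adjusted p = 3.2e-08) and 3.05 ± 0.31 (adjusted p = 2.8e-05). Cyp7b1, the next step, averaged at most 0.0259 CPM and was not tested. Hsd3b7, which breaks the ligand down, stayed between means of 0.791 and 1.06 CPM and did not pass under LPS (adjusted p = 0.19) or IFN-β (adjusted p = 0.586).

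Gpr35, for which kynurenic acid and a serotonin metabolite have been proposed as ligands, was lower with LPS. The unstimulated libraries held 49.2, 44.3 and 46.1 CPM, those with LPS 22.6, 23.2 and 24.1 and those with IFN-β 52.3, 50.1 and 59.6. LPS libraries lay far below the others, at -0.997 ± 0.08 on the log2 scale (adjusted p = 9.3e-07). The rise under IFN-β, 0.21 ± 0.08 (adjusted p = 0.0398), turned to -0.09 (adjusted p = 0.330) with library size alone. It was lost on leaving out any 1 library other than unstimulated A or IFN-β B, with adjusted p-values from 0.0533 to 0.154.

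Gpr55, a receptor for lysophosphatidylinositol, also moved in opposite directions. It measured 8.11, 9.70 and 9.27 CPM in unstimulated, 7.50, 6.55 and 7.31 in LPS and 14.5, 12.5 and 13.2 in IFN-β libraries, without overlap between any pair of groups. The changes were -0.34 ± 0.10 under LPS (adjusted p = 0.0112) and 0.57 ± 0.10 under IFN-β (adjusted p = 0.00087), which differed by 0.91 ± 0.10 (adjusted p = 3.3e-05). With library size alone the IFN-β rise was 0.26 (adjusted p = 0.0591). Gpr18, an orphan for which lipid mediators have been proposed, rose from 0.620 ± 0.0772 to 3.43 ± 0.882 CPM with LPS (log2 fold change 2.45 ± 0.23, adjusted p = 3.7e-06) and stood at 0.547 ± 0.0334 with IFN-β (-0.18 ± 0.27, adjusted p = 0.609). Gpr18 and Gpr183 both lie within Ubac2, on the opposite strand, without shared exon bases. Ubac2 stood at 21.1 CPM in unstimulated libraries and changed by -0.10 under LPS and 0.16 under IFN-β.

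The Gpr31 copies lie on chromosome 17 and include the 2 largest LPS rises of the set. Human GPR31 has been described as a receptor for a hydroxylated arachidonic acid and, in intestinal phagocytes, for lactate and pyruvate. In GRCm38, with GENCODE M21, Gpr31b (chr17:13051014-13052296) is the protein-coding copy, Gpr31a (chr17:7314888-7315846) is annotated as a processed pseudogene, and Gpr31c (chr17:13341241-13345880) as a transcribed processed pseudogene. Of their 100-base exon windows, 42.9% in Gpr31a, 68.8% in Gpr31b and 12.7% in Gpr31c also occur exactly in another copy or in other annotated genes, Gm6553 among them. Reads that lie wholly in such stretches cannot be placed on one copy, so the level of each is uncertain.

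Raw counts of Gpr31a were 0, 0 and 2 in libraries A, B and C without stimulation, 231, 209 and 158 with LPS and 7, 1 and 2 with IFN-β. The LPS group alone was clearly above the floor, with 598 counts in all against 2, a depth-scaled ratio of 403 (exact 95% interval 111 to 3338). Gpr31b had 3, 1 and 0 counts without stimulation, 160, 119 and 64 with LPS and 32, 5 and 14 with IFN-β. Its ratios were 116 (44.8 to 427) for LPS and 14.0 (5.16 to 53.5) for IFN-β. For Gpr31c the unstimulated counts were 39, 18 and 4, the LPS counts 240, 157 and 82 and the IFN-β counts 179, 46 and 29. In each of Gpr31b and Gpr31c, library A was the highest of its group in all 3 groups.

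All 3 copies passed under LPS, at 8.40 ± 0.55 for Gpr31a, 6.74 ± 0.78 for Gpr31b and 3.41 ± 0.77 (adjusted p = 0.00235) for Gpr31c. Gpr31a reached the count floor in LPS libraries only and Gpr31b in stimulated libraries only. The floor thus favoured their rises, which describe these copies only. Under IFN-β, Gpr31b gave 3.65 ± 1.002 (adjusted p = 0.0121) and Gpr31c 2.12 ± 0.79 (adjusted p = 0.0488), and Gpr31a did not pass (2.23 ± 1.08, adjusted p = 0.116). Both IFN-β calls were lost without IFN-β library A, with Gpr31b at 2.91 (adjusted p = 0.0571) and Gpr31c at 1.06 (adjusted p = 0.2995). The Gpr31c call was also lost without unstimulated B (adjusted p = 0.127), unstimulated C (adjusted p = 0.128) or LPS B (adjusted p = 0.0691). The response to IFN-β was below that to LPS for Gpr31a (-6.16 ± 0.44) and Gpr31b (-3.08 ± 0.53, adjusted p = 0.00067). For Gpr31c this difference was -1.30 ± 0.66 (adjusted p = 0.127), or -1.43 with the replicate block (adjusted p = 2.4e-05).

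Leukocyte-expressed receptors that are orphans or have peptide ligands counted 8 reported genes. Under LPS 3 of them were higher and 3 lower, beside 32.8% and 35.4% of all genes, and under IFN-β 4 were higher and 2 lower, beside 23.6% and 23.3%. Gpr141 (chr13:19749682-19824257), a leukocyte orphan, had the highest mean level of the members in every group. It measured 162, 126 and 111 CPM in unstimulated, 628, 408 and 429 in LPS and 464, 333 and 349 in IFN-β libraries. Both stimulated groups lay wholly above the unstimulated one, at 1.87 ± 0.20 (adjusted p = 1e-05) and 1.52 ± 0.20 (adjusted p = 0.00014). The responses differed by -0.35 ± 0.19 with an adjusted p of 0.156, which was 6.3e-04 with the replicate block.

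Its neighbour Gpr141b (chr13:19727426-19732951) is annotated as a long intergenic RNA in GENCODE M21. Levels were 0.709, 0.359 and 0.699 CPM without stimulation, 6.55, 4.95 and 8.69 with LPS and 2.01, 1.38 and 2.76 with IFN-β. The 3 groups were fully separate, with log2 fold changes of 3.51 ± 0.33 (adjusted p = 3.9e-06) for LPS and 1.80 ± 0.34 (adjusted p = 0.00162) for IFN-β. No 100-base exon window of Gpr141 or Gpr141b occurs in another annotated gene.

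Gpr33 (chr12:52023003-52028063), an orphan of the chemoattractant receptor group that is inactive in many humans, was induced by both stimuli from near 0. Raw counts were 0, 1 and 1 in unstimulated libraries, 22, 22 and 20 with LPS and 36, 21 and 22 with IFN-β. Against the 2 unstimulated counts the depth-scaled ratio was 43.2 for LPS (exact 95% interval 11.5 to 364) and 43.5 for IFN-β (11.6 to 365). Gpr33 reached the count floor in stimulated libraries only, which favoured a rise. Fitted changes were 5.17 ± 0.50 for LPS and 5.16 ± 0.49 for IFN-β. The 95% interval of the difference between the responses ran from -0.68 to 0.67, so a difference within that range remains compatible with these libraries.

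Gpr160 (chr3:30855950-30897192), for which the peptide CART has been proposed as a ligand, had the deepest LPS fall of the 38. Unstimulated libraries held 31.3, 37.3 and 35.2 CPM, LPS libraries 3.64, 4.69 and 5.31 and IFN-β libraries 16.3, 22.4 and 20.8. The 3 groups did not overlap, with -2.92 ± 0.16 under LPS (adjusted p = 5.8e-08), -0.80 ± 0.14 under IFN-β (adjusted p = 0.00082) and 2.12 ± 0.15 between the responses (adjusted p = 1.6e-06).

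Gpr146 (chr5:139377697-139396415), a receptor with a known part in liver cholesterol metabolism, fell almost as far under LPS. It stood at 56.5, 46.8 and 44.8 CPM without stimulation, 6.33, 7.34 and 6.14 with LPS and 40.2, 40.7 and 34.1 with IFN-β. LPS libraries were well below both other groups, at -2.90 ± 0.12 (adjusted p = 1.2e-08). The IFN-β change of -0.36 ± 0.11 (adjusted p = 0.0167) no longer passed without unstimulated library A (-0.26, adjusted p = 0.0612) or without IFN-β library C (-0.28, adjusted p = 0.0680). Gpr146 lies within 3110082I17Rik, a gene on the opposite strand, which changed by -2.74 under LPS and -0.66 under IFN-β, without shared exon bases.

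Gpr15, which directs T cells to the colon, rose with IFN-β from 4.04 ± 1.04 to 11.2 ± 1.97 CPM (1.47 ± 0.23, adjusted p = 0.00046). With LPS its mean was 5.94 ± 1.80 CPM, at 0.55 ± 0.24 (adjusted p = 0.0602, or 0.00121 with the replicate block). Gpr15 shares 204 exon bases with Cpox, on the opposite strand. Cpox stood at 24.7 CPM in unstimulated libraries and changed by 0.20 under LPS and -0.13 under IFN-β. Gpr171, an orphan related to nucleotide receptors, fell from 28.1 ± 3.14 to 16.1 ± 2.59 CPM with LPS (-0.80 ± 0.13, adjusted p = 0.0002) and stood at 29.7 ± 2.93 with IFN-β (0.08 ± 0.12, adjusted p = 0.64). It lies within Med12l, on the opposite strand, which changed by 1.05 under LPS. The orphan Gpr82, at a mean of 0.263 CPM or less, passed under neither stimulus. It lies within Cask, on the opposite strand, which changed by 1.60 under LPS and 0.89 under IFN-β.

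Promoter sequence was examined for letters of 4 motifs on both strands, in RefSeq windows of 300 bases (250 before and 50 after the annotated start, GRCm38.p6), which were found for 29 of the 38 members. The interferon-stimulated response element was searched as GAAANNGAAA, the gamma-activated site as TTCNNNGAA, kappa-B as GGGANNTTCC and AP-1 as TGANTCA, where N is any base. The first was present in 4 of the 29 members (Gpr15, Gpr141b, Gpr18 and Gpr19) and in 3.99% of all 27025 genes with a window. The gamma-activated site was present in 4 members (Gpr146, Gpr55, Gpr33 and Gpr4) and in 9.55% of genes. AP-1 letters were present in 3 members (Gpr35, Gpr146 and Gpr15) and in 8.97% of genes, and kappa-B letters in none of the members and in 1.63% of genes. Only in the Gpr15 window were 2 kinds of motif present together, and they did not overlap. Gpr141b rose under both stimuli, Gpr18 under LPS and Gpr33 under both from near 0, and their 250 bases before the start are given with motif letters in capitals. All are on the minus strand, written 5′ to 3′, at chr13:19732952-19733201, chr14:121915889-121916138 and chr12:52028064-52028313, respectively.
Gpr141b: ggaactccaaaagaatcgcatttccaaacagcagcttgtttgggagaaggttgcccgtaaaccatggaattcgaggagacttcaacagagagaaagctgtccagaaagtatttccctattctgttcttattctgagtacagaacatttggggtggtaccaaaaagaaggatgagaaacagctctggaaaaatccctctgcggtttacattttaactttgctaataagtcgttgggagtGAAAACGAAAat
Gpr18: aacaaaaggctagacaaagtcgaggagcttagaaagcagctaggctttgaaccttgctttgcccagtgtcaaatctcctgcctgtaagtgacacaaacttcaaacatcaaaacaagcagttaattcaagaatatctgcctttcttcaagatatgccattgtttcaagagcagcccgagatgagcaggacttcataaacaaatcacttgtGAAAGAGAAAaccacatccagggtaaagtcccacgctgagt
Gpr33: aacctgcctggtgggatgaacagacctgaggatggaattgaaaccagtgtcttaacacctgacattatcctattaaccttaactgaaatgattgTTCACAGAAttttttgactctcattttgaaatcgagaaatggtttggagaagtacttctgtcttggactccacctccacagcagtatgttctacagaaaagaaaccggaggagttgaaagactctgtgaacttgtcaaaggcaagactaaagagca
The response element begins 12 bases before the start in Gpr141b and 41 bases before it in Gpr18, and the gamma-activated site 156 bases before it in Gpr33. A match of letters is not evidence of binding.

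Membrane proteins of the Golgi, lysosome or related compartments that carry the Gpr name had 8 reported genes, with 1 higher and 4 lower under LPS, beside 32.8% and 35.4% of all genes, and 2 higher and 3 lower under IFN-β, beside 23.6% and 23.3%. Gpr137b, a lysosomal protein tied to mTORC1, was among the most abundant members. It measured 73.2, 68.4 and 69.99 CPM in unstimulated, 24.3, 25.8 and 29.2 in LPS and 87.3, 79.5 and 82.4 in IFN-β libraries, with no overlap. The LPS change was -1.42 ± 0.08 (adjusted p = 6.6e-08), and the IFN-β and LPS responses differed by 1.65 ± 0.08 (adjusted p = 8.1e-08). The small IFN-β rise, 0.24 ± 0.07 (adjusted p = 0.0232), was lost without unstimulated B (0.21, adjusted p = 0.0916), unstimulated C (0.23, adjusted p = 0.0660) or IFN-β A (0.19, adjusted p = 0.0950). With library size alone it was -0.07 (adjusted p = 0.488). The pseudogene Gpr137b-ps shares 16.6% of its windows. Gpr137 averaged 18.3 to 18.8 CPM over the groups and did not pass (LPS adjusted p = 0.644, IFN-β 0.776), with a 95% interval of the change from -0.22 to 0.14 for LPS and from -0.21 to 0.15 for IFN-β. With library size alone it was lower under both, at -0.62 (adjusted p = 2.7e-05) and -0.33 (adjusted p = 0.00438). Gpr137 shares 524 exon bases with Bad, on the opposite strand. Bad stood at 18.7 CPM in unstimulated libraries and changed by -0.33 under LPS and -0.02 under IFN-β. Gpr137c, at 0.913 ± 0.0946 CPM unstimulated, was lower under LPS (-1.07 ± 0.34, adjusted p = 0.0165), a call lost without LPS library B (-0.93, adjusted p = 0.0654). Under IFN-β it gave -0.66 ± 0.32 (adjusted p = 0.112), or -0.97 with library size alone (adjusted p = 0.0208). Without IFN-β library A that change was -1.17 (adjusted p = 0.00984). Gpr137c shares 159 exon bases with Txndc16, on the opposite strand. Txndc16 stood at 16.9 CPM in unstimulated libraries and changed by -0.90 under LPS, and its part in the Gpr137c counts was not tested.

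Gpr180, which has been linked to TGF-beta signalling, fell under both stimuli. Libraries held 11.99, 10.5 and 10.6 CPM unstimulated, 2.41, 2.83 and 2.98 with LPS and 4.78, 4.46 and 5.05 with IFN-β. No pair of groups overlapped, with changes of -2.004 ± 0.12 (adjusted p = 9.8e-08) and -1.21 ± 0.11 (adjusted p = 1.2e-05) that differed by 0.80 ± 0.12 (adjusted p = 0.00026). Gpr89, an anion channel of the Golgi, likewise fell from 26.6 ± 1.12 CPM to 11.6 ± 0.770 with LPS (-1.20 ± 0.07, adjusted p = 1.6e-07) and to 18.3 ± 0.485 with IFN-β (-0.54 ± 0.07, adjusted p = 0.00017). Of its windows, 19.6% also lie in Gja5 or Pdzk1, on the opposite strand, with means of at most 4.72 CPM.

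Gpr155, a lysosomal cholesterol sensor, passed under IFN-β. It stood at 16.9, 15.9 and 17.4 CPM in unstimulated, 16.6, 16.3 and 18.1 in LPS and 10.4, 9.21 and 11.02 in IFN-β libraries. The unstimulated and LPS libraries overlapped (0.02 ± 0.09, adjusted p = 0.833) and the IFN-β libraries lay below both, at -0.71 ± 0.09 (adjusted p = 9e-05). The responses differed by -0.74 ± 0.09 (adjusted p = 5.3e-05), and with library size alone the LPS change was -0.56 (adjusted p = 2.1e-04). Of the related Golgi proteins Gpr107 and Gpr108, Gpr108 rose from 45.5 ± 3.62 CPM to 67.1 ± 2.58 with LPS (0.56 ± 0.07, adjusted p = 4.6e-05, but -0.02 with library size alone, adjusted p = 0.785) and to 65.5 ± 3.47 with IFN-β (0.53 ± 0.07, adjusted p = 0.00021). Gpr107 had means of 106, 102 and 118 CPM in unstimulated, LPS and IFN-β libraries, and its IFN-β change of 0.16 ± 0.06 had an adjusted p of 0.0531, or 0.0238 with the replicate block. Its LPS change was -0.06 (adjusted p = 0.425), or -0.64 with library size alone (adjusted p = 1.2e-05). Its IFN-β level was above its LPS level by 0.21 ± 0.06 (adjusted p = 0.0132), or by 0.16 without LPS library A (adjusted p = 0.0590).

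Orphans with constitutive activity or a link to cAMP had 3 reported genes of 12. Gpr176, an orphan of the circadian clock, rose with LPS from 6.25 ± 1.07 to 15.1 ± 0.327 CPM (1.27 ± 0.13, adjusted p = 6.1e-06) and had 7.62 ± 0.845 CPM with IFN-β (0.28 ± 0.13, adjusted p = 0.095, or 0.0340 with the replicate block). Gpr52, a striatal orphan, went from 2.87 ± 0.528 CPM to 4.38 ± 0.628 with LPS (0.61 ± 0.17, adjusted p = 0.00941) and 4.36 ± 0.551 with IFN-β (0.60 ± 0.17, adjusted p = 0.0151). It lies within Rabgap1l, at 65.9 CPM in unstimulated libraries, which changed by 0.36 and 0.35. With library size alone the change of Gpr52 was 0.02 under LPS (adjusted p = 0.919) and 0.29 under IFN-β (adjusted p = 0.217). Without IFN-β library B its IFN-β change was 0.49 (adjusted p = 0.0613). Gpr21 lies within Rabgap1 on the same strand and did not pass (LPS 0.32 ± 0.18, adjusted p = 0.13), while Rabgap1 changed by 0.35 under LPS.

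Of the remaining orphans, Gpr85 gave opposed responses at a high level. This receptor, conserved among vertebrates and known from the brain, measured 23.4, 23.98 and 24.5 CPM in unstimulated, 69.3, 65.2 and 56.1 in LPS and 16.96, 16.4 and 16.9 in IFN-β libraries. The groups did not overlap, with LPS highest and IFN-β lowest. The changes were 1.41 ± 0.08 (adjusted p = 8.9e-08) and -0.52 ± 0.08 (adjusted p = 0.00046), which differed by -1.92 ± 0.08 (adjusted p = 4.8e-08).

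Gpr162 moved the other way around. Its levels were 0.684, 0.472 and 0.745 CPM unstimulated, 0.212, 0.204 and 0.0307 with LPS and 1.66, 1.25 and 1.27 with IFN-β. The LPS libraries, at 1 to 7 raw counts, were lowest, at -2.08 ± 0.44. None of them reached the count floor, which favoured that fall. The IFN-β libraries were highest, at 1.14 ± 0.31 (adjusted p = 0.0117). The IFN-β call was lost without unstimulated library B (0.96, adjusted p = 0.0535) or IFN-β library A (0.98, adjusted p = 0.0510). Its relative Gpr153 rose with LPS from 0.498 ± 0.163 to 1.06 ± 0.327 CPM (1.10 ± 0.32, adjusted p = 0.0101). That call was lost without LPS library B (0.82, adjusted p = 0.0575) and with library size alone (0.53, adjusted p = 0.144). Under IFN-β it gave 0.00 ± 0.32 (adjusted p = 0.999).

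Gpr157 had 12.99 ± 1.23 CPM unstimulated, 15.6 ± 0.355 with LPS and 18.5 ± 1.83 with IFN-β. Its IFN-β rise was 0.51 ± 0.09 (adjusted p = 0.00131), or 0.20 with library size alone (adjusted p = 0.0813). The LPS rise of 0.26 ± 0.10 (adjusted p = 0.0309) was lost without unstimulated B, unstimulated C, LPS B or LPS C (adjusted p from 0.0671 to 0.135) and turned to -0.32 (adjusted p = 0.00927) with library size alone. The difference between its responses, 0.25 ± 0.09 (adjusted p = 0.0497), was lost in DESeq2 (adjusted p = 0.118) and on leaving out any library other than unstimulated A, unstimulated C or IFN-β B. Gpr19 averaged 1.27 to 1.81 CPM over the groups and did not pass (LPS adjusted p = 0.214, IFN-β 0.0698, or 0.0353 with the replicate block), but with library size alone it was at -0.89 (adjusted p = 0.00381) and -0.82 (adjusted p = 0.00885). Gpr179, a class C orphan known from retinal bipolar cells, reached at most 22 counts and did not pass (LPS adjusted p = 0.169, IFN-β 0.124), or was at -1.32 (adjusted p = 0.0196) and -1.21 (adjusted p = 0.0374) with library size alone.

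Divided by exon length, levels can be set side by side between genes for the 35 reported members with a GENCODE length. In unstimulated DCs the highest mean levels were those of Gpr141 (22.3 CPM per kb), Gpr132 (21.6), Gpr108 (15.9), Gpr137b (14.0) and Gpr171 (12.6). Gpr141 ranged from 18.6 to 27.1 CPM per kb over the 3 libraries and Gpr132 from 21.3 to 21.8, so these neighbours did not separate with the exon union as length. Under LPS the order was Gpr141 (81.7), Gpr84 (52.2), Gpr132 (36.6), Gpr108 (23.5) and Gpr85 (15.6), whereas Gpr84 was at 11.9 without stimulation. Under IFN-β it was Gpr141 (64.0), Gpr132 (23.2), Gpr108 (22.9), Gpr137b (16.5) and Gpr65 (15.98). Gpr132 and Gpr108 overlapped there. With the length of the longest transcript in place of the exon union, Gpr107 took the place of Gpr171 in unstimulated and of Gpr65 in IFN-β-treated DCs. That length separated Gpr141 (32.4 to 47.2 CPM per kb) from Gpr132 (23.3 to 23.9) in unstimulated libraries. It also placed Gpr137b above Gpr108 without stimulation and Gpr108 above Gpr132 under IFN-β.

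**Figure D3:**
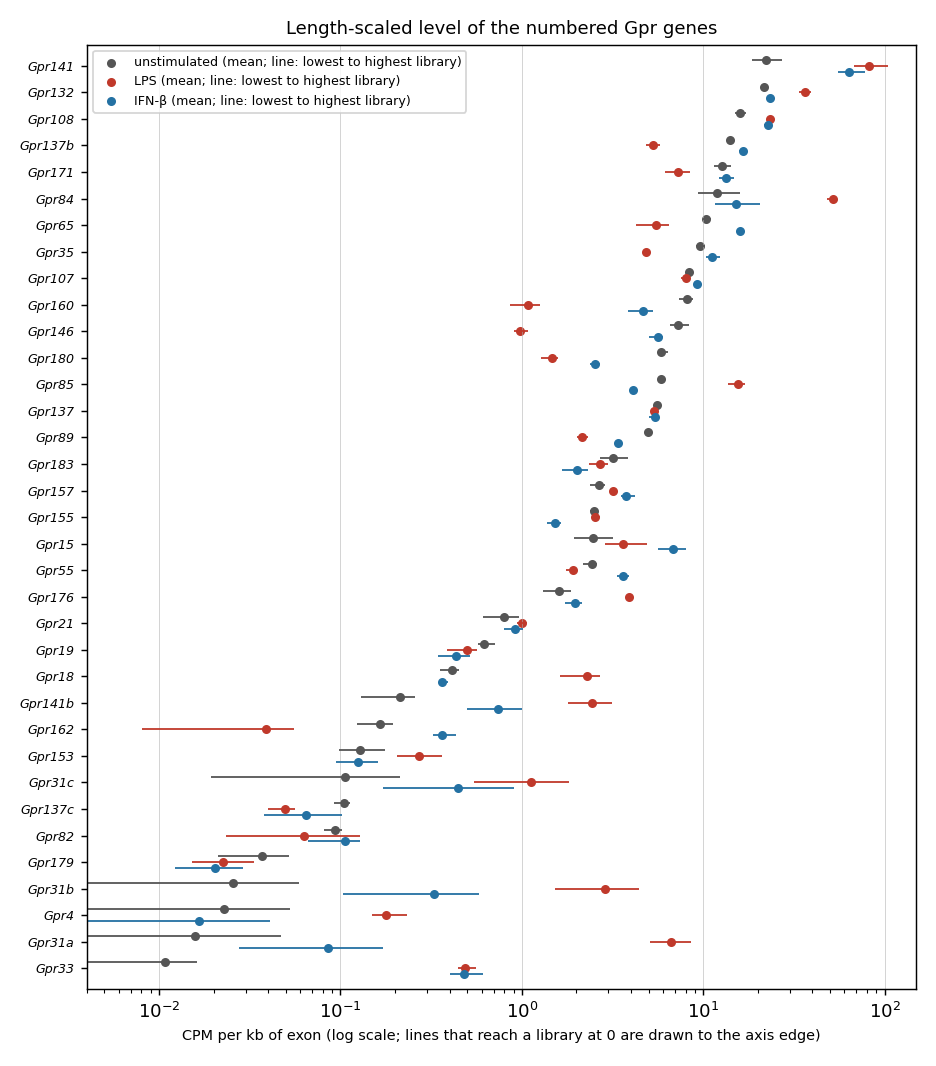
CPM per kb of exon on a log axis for 35 reported Gpr genes, ordered by unstimulated level, with grey, red and blue points for the mean of unstimulated, LPS and IFN-β libraries and lines from the lowest to the highest library (n = 3). Gpr141 is at the top in each group (22.3, 81.7 and 64.0), and Gpr31a, Gpr31b, Gpr33 and Gpr4 have unstimulated libraries at 0.

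The other 38 numbered Gpr genes stayed below the floor. Of these, 17 had 0 counts in every library, which allows up to 3 counts or 0.106 CPM in the library with the highest floor: Gpr143, Gpr165, Gpr142, Gpr101, Gpr37, Gpr26, Gpr12, Gpr149, Gpr22, Gpr20, Gpr158, Gpr6, Gpr119, Gpr17, Gpr25, Gpr173 and Gpr182. The other 21 had some counts in at least 1 library. Among those named here, the highest count in any library was 15 for Gpr34 and 11 for Gpr75, in 1 library each at 10 or more, and 9 for Gpr161. It was 6 for Gpr174 and Gpr62, 5 for Gpr152, 4 for Gpr45 and Gpr61 and 3 for Gpr83. It was 2 for Gpr39, Gpr27 and Gpr139, and 1 for Gpr3, Gpr135, Gpr50, Gpr151, Gpr1 and Gpr63. These include Gpr34 and Gpr174, the lysophosphatidylserine receptors, and Gpr3, Gpr6 and Gpr12, a family of constitutively active receptors.

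Downstream of the receptors, 45 of 55 listed genes of G protein subunits, RGS proteins (which speed GTP hydrolysis), receptor kinases, arrestins and related regulators were tested. Under LPS 36 of 45 passed, against 68.2% of all genes, with 15 higher, beside 32.8%, and 21 lower, beside 35.4%. Under IFN-β 26 passed, against 46.9%, with 15 higher, beside 23.6%, and 11 lower, beside 23.3%. Between the responses 28 differed, against 49.1%, with 16 above, beside 25.8%, and 12 below, beside 23.3%. With library size alone the splits were 8 higher and 31 lower under LPS, 8 and 23 under IFN-β, and 25 above and 6 below between the responses. Shares of all genes were not taken with that scaling. Median sizes of change were 0.76 under LPS and 0.35 under IFN-β, beside 0.65 and 0.35 over all genes. The gamma subunit Gng4, with 6, 4 and 5 counts in unstimulated, 64, 101 and 109 in LPS and 4, 3 and 6 in IFN-β libraries, reached 10 counts in LPS libraries only and so had to be higher there (fitted change 4.57 ± 0.29). The largest rises of the other listed genes under LPS were Rgs1 (2.54 ± 0.18, adjusted p = 5e-07) and Gpsm2 (1.84 ± 0.10, adjusted p = 8.9e-08). The deepest falls were those of the arrestin Arrb1, from 364 ± 14.1 to 44.8 ± 13.1 CPM (-3.02 ± 0.18, adjusted p = 1.3e-07), the gamma subunit Gng7 (-2.50 ± 0.37, adjusted p = 0.00011) and the receptor kinase Grk5 (-1.96 ± 0.15, adjusted p = 6.5e-07). The Gng7 call was lost where 10 or more counts were required in every library.

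Under IFN-β the largest rises were Rgs1 (1.37 ± 0.18, adjusted p = 0.00014), Gpsm2 (1.25 ± 0.10, adjusted p = 7.3e-06) and the beta subunit Gnb4 (1.10 ± 0.09, adjusted p = 5.3e-06). The largest falls were Grk4 (-1.21 ± 0.24, adjusted p = 0.0018), Gnb5 (-1.13 ± 0.20, adjusted p = 0.00094) and Grk5 (-1.05 ± 0.14, adjusted p = 0.00017). The plot of this list also shows Rgs2, chosen after its values were seen, at 66.5 ± 18.8 CPM in unstimulated, 22.8 ± 6.06 in LPS and 124 ± 29.1 in IFN-β libraries. It was lower with LPS (-1.54 ± 0.25, adjusted p = 0.00022) and higher with IFN-β (0.91 ± 0.24, adjusted p = 0.00965).

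**Figure D4:**
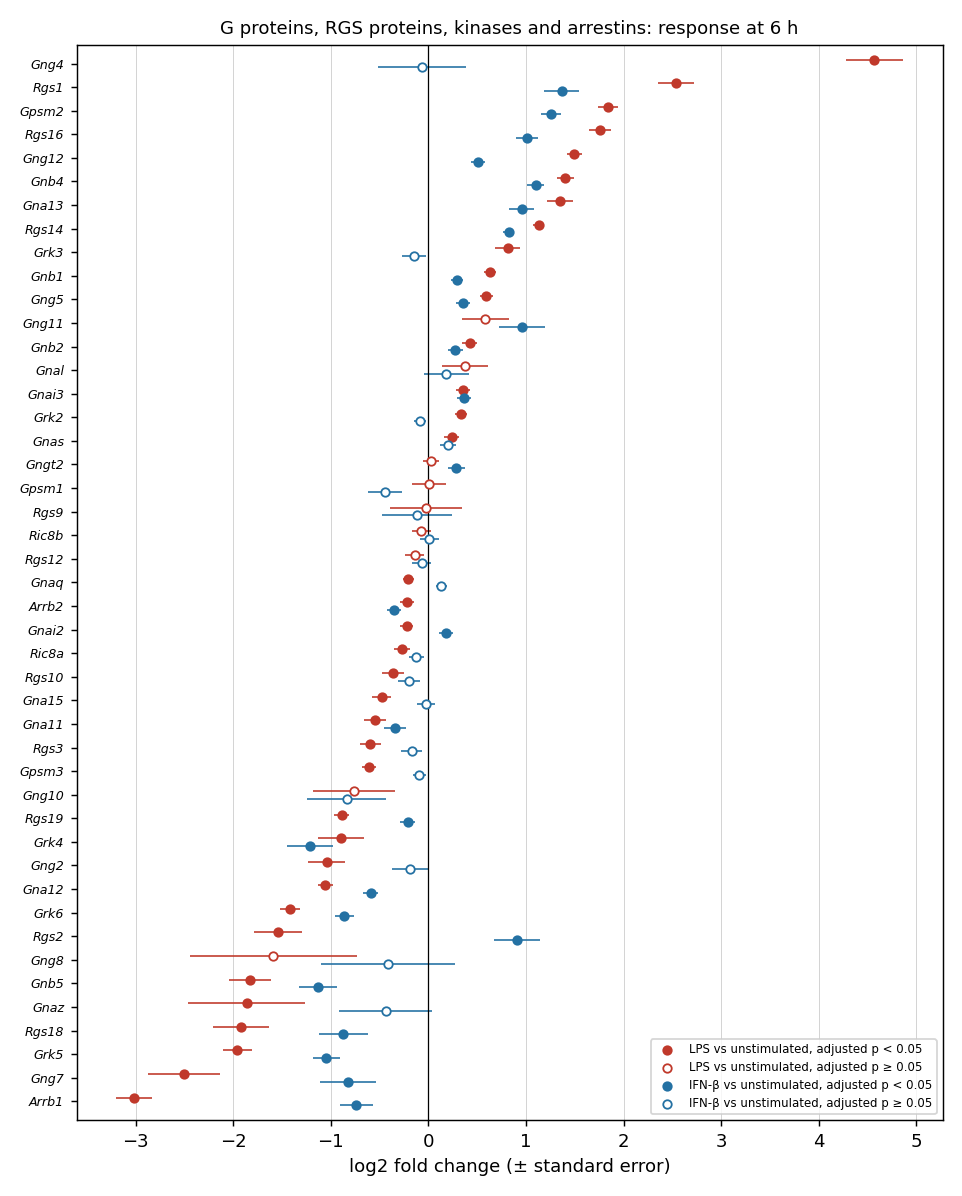
Log2 fold changes against unstimulated DCs with standard errors for the 45 tested genes of G proteins, RGS proteins, receptor kinases and arrestins, LPS in red and IFN-β in blue, filled where the adjusted p was under 0.05. LPS values run from -3.02 (Arrb1) to 4.57 (Gng4), and IFN-β values from -1.21 (Grk4) to 1.37 (Rgs1).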

How the data were processed

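RNA of 9 libraries was ribosome-depleted and sequenced, and the authors trimmed the reads with Trim Galore (0.6.0 in the submitters' processing notes), mapped them with STAR (2.7.8a in those notes) to mm10 and took gene counts from the aligner. The deposited values are raw counts per gene and were not normalized. Which strand column was taken is not given in the sources used here, and the aligner's gene counts hold only reads placed at 1 locus. Counts of 55471 genes were tested in R 4.3.3 with edgeR 4.0.16: filterByExpr by group, TMM factors, a quasi-likelihood fit with 1 coefficient per group over all 9 libraries, F tests, Benjamini-Hochberg adjustment over 16260 genes and a threshold of 0.05. The standard error is the size of the log2 fold change divided by the root of F, and 95% intervals of a change use a t quantile with 6 residual degrees of freedom. Ratios of few counts carry exact intervals, which cover counting error only. Fits were tested on simulated data.

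The members, lists and tests were chosen with earlier results of these data known. Members are named by role, and some genes are not reported here. Values in all libraries are given for the 4 largest rises and falls under each stimulus, for the proton-sensing family and for members that passed in opposite directions, and the 3 largest changes per direction and stimulus are named among G proteins and regulators. Same-letter libraries of different groups deviated together, with correlations from 0.115 to 0.470 in all 9 pairs, against -0.400 to 0.028 in pairs of different letters. Group means were subtracted first, so positive correlations within letters push those between letters below 0. This pairing comes from the data, since the labels do not say what the letters stand for, and blocked values are given where they change a call. Alternatives were library size alone, upper-quartile factors, other count filters, the replicate block, fits of 2 groups, each library left out, DESeq2 1.42.0 and stricter thresholds. Lengths and overlaps are from GENCODE M21, which held 55144 of the identifiers, and promoters from RefSeq GRCm38.p6. The published methods name an earlier STAR version than the notes and an earlier GENCODE release than M21. Lengths and overlaps may therefore differ from those used for counting. Gpr52 has no entry in GENCODE M21 and no length. Protein sequences were not analysed here.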

Additional observations from a re-analysis of the deposited data

How the results depend on the processing

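The 76 tests of members that passed were repeated under the alternatives that kept the gene, 1199 fits in all, of which 1142 kept direction and call, 53 kept the direction and lost the call and 4 reversed. The reversals came with library size alone and were Gpr137b under IFN-β (-0.070), Gpr35 under IFN-β (-0.092), Gpr108 under LPS (-0.020) and Gpr157 under LPS (-0.32). By construction that setting leaves out the composition factors, which were 1.18 to 1.26 in unstimulated, 0.783 to 0.841 in LPS and 0.977 to 1.02 in IFN-β libraries. Requiring also an absolute log2 fold change of 1 left 20 members under LPS, 8 of 22 under IFN-β and 15 of 25 between the responses, and 18 of 36, 7 of 26 and 6 of 28 G protein and regulator genes, respectively. With the replicate block 31 members passed under LPS, 26 under IFN-β and 28 between the responses, all 76 calls were kept, and the 9 calls it added are given beside their genes. Leaving out 1 library at a time gave 27 to 30 members under LPS, 18 to 22 under IFN-β and 24 to 26 between the responses. Shares of all genes were not taken for the stricter threshold, the block or these fits, so such counts describe the listed genes only. DESeq2 kept 74 of the 76 calls and lost Gpr157 between the responses (adjusted p = 0.118) and Gpr31c under IFN-β (adjusted p = 0.0727). Depth limits the members below about 1 CPM, such as Gpr4, Gpr31a and Gpr33, whose unstimulated libraries held 0 to 6 counts.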
